A study of Mus musculus with 191 samples.

Results

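Tcf7l2, Gbx2, Lef1, Prkcd, Rora and Calb2 are 6 genes used as markers of the mouse thalamus, and their levels were followed in tissue punched from 3 other brain regions after chronic intermittent ethanol (CIE) vapor. They were listed with treated against control differences and correlations over arrays of these same data known, so those values are given below as a description without a p-value. Of the 6 genes, 5 had a probe among the 10004 gene symbols of the array annotation, and Lef1 was not analysed here. A probe was kept when its detection p was at most 0.05 on more than 80% of the 48 arrays of a region. By that criterion 5 of the 6 genes were measured in amygdala (AMY) and nucleus accumbens (NAC) and 4 in prefrontal cortex (PFC), where Gbx2 was detected on 0 of 48 arrays.

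The thalamus relays signals to the cortex and to subcortical structures, mostly through glutamatergic neurons that carry the vesicular transporter Slc17a6. Tcf7l2 encodes a high mobility group (HMG) box transcription factor that acts with beta-catenin in Wnt signalling and stays on in mature thalamic neurons, and Lef1 belongs to the same family. Gbx2 encodes a homeobox transcription factor needed for the formation of the mouse thalamus and also used by developing cholinergic interneurons of the mouse striatum. Prkcd encodes protein kinase C delta, found in thalamic relay neurons and in the lateral central amygdala. Rora encodes a nuclear receptor, and Calb2 encodes the calcium-binding protein calretinin, present in midline thalamus, in cortical interneurons and in the olfactory bulb.

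All mice were C57BL/6J males of 10 to 12 weeks. Treated mice went through 4 weekly cycles of ethanol vapor for 16 h a day, each exposure preceded by ethanol at 1.6 g/kg, whereas control mice breathed air and received saline. Both groups received the alcohol dehydrogenase inhibitor pyrazole at 1 mmol/kg, so every comparison is on a pyrazole background. Brains were taken 0, 8 or 120 h after the last exposure from 8 treated and 8 control mice at each time, which gave 144 brain arrays of the 191 arrays of the series. Punches were taken from sections of 300 µm, with basolateral and central nuclei combined in AMY and core and shell combined in NAC. Each array holds the RNA of 1 mouse, and the animal numbers recur across the 3 regions. A punch is bulk tissue, so fewer cells of a type and less RNA per cell cannot be told apart.

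The RefSeq promoters of Gbx2 and Tcf7l2 are printed because these genes varied together from mouse to mouse. Each runs from 250 bases before to 50 after a start site in build GRCm38.p6 and is read 5′ to 3′ on the strand of the gene, with the HMG box core CTTTG, or its reverse complement CAAAG, in capitals. The Gbx2 window is chr1:89931127-89931426 on the minus strand, and the Tcf7l2 windows are chr19:55741560-55741859 and chr19:55895071-55895370 on the plus strand.
Gbx2: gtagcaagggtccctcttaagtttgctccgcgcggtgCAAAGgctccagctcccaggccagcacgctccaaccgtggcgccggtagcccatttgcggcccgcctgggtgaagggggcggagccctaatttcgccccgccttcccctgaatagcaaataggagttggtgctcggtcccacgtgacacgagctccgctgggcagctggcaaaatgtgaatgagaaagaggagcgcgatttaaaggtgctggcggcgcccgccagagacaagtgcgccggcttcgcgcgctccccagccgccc
Tcf7l2, upstream start: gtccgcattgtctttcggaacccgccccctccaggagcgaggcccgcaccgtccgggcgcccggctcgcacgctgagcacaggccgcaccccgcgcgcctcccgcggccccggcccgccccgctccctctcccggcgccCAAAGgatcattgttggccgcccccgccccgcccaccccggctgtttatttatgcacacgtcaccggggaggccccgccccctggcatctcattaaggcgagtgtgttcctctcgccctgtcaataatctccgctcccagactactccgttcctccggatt
Tcf7l2, downstream start: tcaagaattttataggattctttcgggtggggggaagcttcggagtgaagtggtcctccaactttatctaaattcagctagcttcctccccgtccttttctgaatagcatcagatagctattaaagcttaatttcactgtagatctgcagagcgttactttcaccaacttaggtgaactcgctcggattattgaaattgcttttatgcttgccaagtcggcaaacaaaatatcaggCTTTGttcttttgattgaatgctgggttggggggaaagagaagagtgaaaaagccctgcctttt

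Each of these windows held the core 1 time, beginning at position -213 from the start site for Gbx2, at -111 for the upstream and at -14 for the downstream start of Tcf7l2. None of them held the longer core CTTTGA, which contains CTTTG, on either strand. Over the 10 promoters listed for 5 of the 6 genes, 9 held CTTTG and 2 held CTTTGA, of which 1 belongs to Lef1 and 1 to Prkcd. Among all 32851 promoters of this length the shares were 53.9% and 16%. These are matches of letters only, and promoters of 1 gene can overlap.

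Signal and detection differed between arrays. Median intensity ran from 90.3 to 126, between 12953 and 14833 probes were detected on an array, and the mean correlation of an array with the others of its group was 0.985 to 0.997. The lowest belonged to the PFC array of the 0 h treated group that had the highest Calb2. In PFC, 0 h arrays detected 14285 to 14833 probes and 120 h arrays 13474 to 14099, without overlap. The 0 h treated arrays there correlated with their group at 0.98481 to 0.99205, each below every 0 h control array (0.99246 to 0.99548). Region labels were checked by defining markers. Drd1, the dopamine receptor of striatal projection neurons, ran from 925 to 1699 in intensity in NAC and from 131 to 211 in PFC. Slc17a7, the vesicular glutamate transporter of cortical neurons, ran from 1415 to 2689 in PFC and was detected on 37 of 48 NAC arrays, with a median of 125 and a highest value of 916. Rspo2, a marker of basolateral amygdala, was detected on 48 AMY arrays and on 0 NAC arrays. It was also kept in PFC, with a mean normalized log2 intensity of 7.80 in 0 h controls. The levels of these defining markers thus set AMY apart from NAC and NAC from PFC, but not AMY from PFC. Of the listed genes, Gbx2 did differ there, detected on 48 of 48 AMY arrays and on 0 of 48 PFC arrays.

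Levels are given for 1 probe at a time, and since regions were deposited as separate tables their order is descriptive. In the 24 control arrays of each region, the median Tcf7l2 intensity was 178 (142 to 245) in AMY, 160 (134 to 234) in NAC and 149 (127 to 177) in PFC, and the ranges overlapped. Gbx2 had a median of 194 in NAC (136 to 384) and 164 in AMY (100 to 245), which also overlapped. In PFC, where it was not detected, it ran from 85.7 to 112. Prkcd was brightest in AMY, with 252 (206 to 364), and the lowest AMY array lay above every array of PFC (139 to 183) and NAC (113 to 180). Rora was brightest in PFC, with 485 (394 to 775), followed by AMY (243 to 396) and NAC (220 to 284), each range overlapping the next. The brighter of the Calb2 probes, used below unless stated, had medians of 1507 in PFC (829 to 4027), 1429 in AMY (1043 to 2098) and 459 in NAC (307 to 1116). A second Tcf7l2 probe was detected on 1, 5 and 3 of 48 arrays in AMY, NAC and PFC and was not used.

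The genes differed widely in their spread between mice of 1 group. The SD of Calb2 in PFC was 0.70 on the log2 scale, at percentile 99.98 of all probes measured there, when the median probe had 0.090. Its normalized level varied 8.01-fold between the lowest and the highest of the 48 PFC arrays. Gbx2 stood at percentile 99.5 in AMY (SD 0.27) and at 99.7 in NAC (SD 0.29), and Calb2 at 99.7 in NAC (SD 0.31). By contrast, Rora in NAC (SD 0.060), Tcf7l2 in PFC (SD 0.082) and Prkcd in PFC (SD 0.084) varied less than the median probe of their region.

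In AMY, Gbx2 and Tcf7l2 were lower in treated mice at 0 h. The normalized log2 intensity of Gbx2 had a lowest, median and highest value of 7.28, 7.55 and 7.86 in control arrays and of 6.84, 7.02 and 7.60 in treated arrays. All but 1 of the treated arrays, 7 of 8, lay below every control array. The difference was -0.44 ± 0.11 (SE, n = 8 and 8). For Tcf7l2 the values were 7.38, 7.67 and 7.80 in controls against 7.10, 7.25 and 7.68 in treated mice, with 6 of 8 treated arrays below every control array and a difference of -0.31 ± 0.076. In both genes 1 treated array lay above the control median, and it came from the same mouse. Mean Gbx2 at 0, 8 and 120 h was 7.556, 7.236 and 7.203 in controls and 7.114, 7.323 and 7.265 in treated mice. Mean Tcf7l2 was 7.614, 7.436 and 7.376 in controls and 7.299, 7.354 and 7.382 in treated mice. For each gene the 0 h controls had the highest mean and the 0 h treated mice the lowest. Which group moved was not tested.

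Prkcd differed the other way in AMY. At 0 h its values were 7.76, 7.96 and 8.30 in controls and 7.95, 8.32 and 8.45 in treated mice, a difference of 0.24 ± 0.089, with 4 of 8 treated arrays above every control array. At 8 h they were 7.80, 8.12 and 8.22 against 7.98, 8.35 and 8.56, a difference of 0.29 ± 0.075, with 6 of 8 treated arrays above every control array. At 120 h the treated arrays lay within the control range of 7.62 to 8.53 (0.16 ± 0.093), and all 8 lay above the control median.

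The other values in AMY overlapped between the groups. Gbx2 differed by 0.087 ± 0.12 at 8 h and by 0.062 ± 0.13 at 120 h, and Tcf7l2 by -0.082 ± 0.068 and 0.0058 ± 0.078. Differences of Rora ran from -0.052 to -0.031 over the 3 times, and those of Calb2 from -0.11 to 0.049. At an adjusted p of at most 0.05, the limma fit passed 2 of 5 genes at 0 h (Gbx2 and Tcf7l2), 1 of 5 at 8 h (Prkcd) and 0 of 5 at 120 h, beside 3.88%, 2.88% and 0% of all 12588 probes. The genes were chosen on this contrast, so nothing is read from these counts, here or in the other regions.

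**Figure D1:**
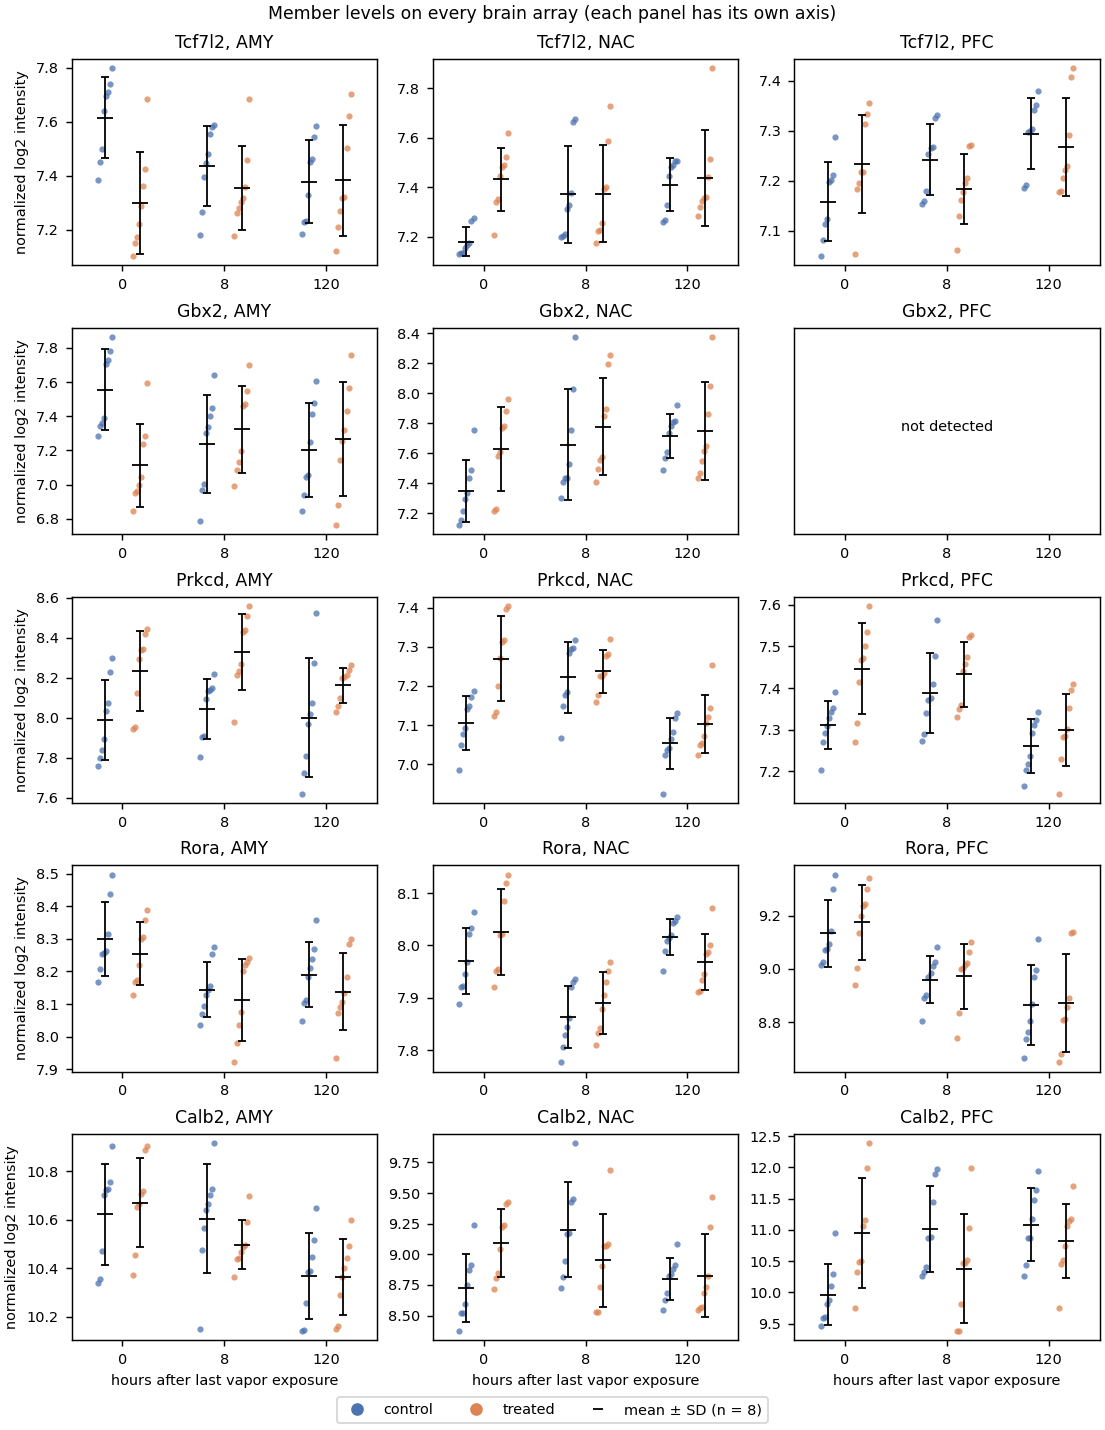
Normalized log2 intensity of each gene on every array (points) by hours after the last exposure, with a column for each region; control mice are blue, treated mice orange, and black marks give mean ± SD (n = 8). At 0 h Gbx2 and Tcf7l2 are lower in treated mice in AMY and higher in NAC, and Calb2 in PFC spreads from 9.38 to 12.39.

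In NAC, Gbx2 and Tcf7l2 stood on the other side of the controls at 0 h. Tcf7l2 had values of 7.13, 7.16 and 7.28 in control arrays and 7.21, 7.46 and 7.62 in treated arrays, a difference of 0.25 ± 0.047. Of the treated arrays, 7 of 8 lay above every control array. Gbx2 was spread more widely, at 7.12, 7.31 and 7.76 in controls and 7.22, 7.69 and 7.96 in treated mice, a difference of 0.28 ± 0.11 with 4 of 8 treated arrays above every control array. Prkcd had 6.98, 7.12 and 7.19 against 7.12, 7.29 and 7.40, a difference of 0.16 ± 0.043 with 6 of 8 above. All 8 treated arrays exceeded the control median for Tcf7l2, Prkcd and Calb2, and 6 of 8 did so for Gbx2. Mean Tcf7l2 at 0, 8 and 120 h was 7.18, 7.37 and 7.41 in controls and 7.43, 7.37 and 7.44 in treated mice. Mean Gbx2 was 7.35, 7.66 and 7.72 in controls and 7.63, 7.78 and 7.75 in treated mice. In both genes the 0 h controls had the lowest mean, and which group moved was not tested.

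Calb2 in NAC at 0 h had values of 8.37, 8.67 and 9.24 in controls and 8.72, 9.13 and 9.43 in treated mice, a difference of 0.37 ± 0.12 that the second probe gave as 0.26 ± 0.079. The groups overlapped, with 3 of 8 treated arrays above every control array. At 8 h the sign was turned (-0.25 ± 0.16), and the ranges overlapped, from 8.72 to 9.91 in controls and from 8.53 to 9.69 in treated mice. At that time Tcf7l2 differed by 0.0031 ± 0.086, Gbx2 by 0.12 ± 0.15, Prkcd by 0.016 ± 0.037 and Rora by 0.027 ± 0.031. At 120 h the differences of all 5 genes lay between -0.048 and 0.049. The fit passed 2 of 5 genes at 0 h (Tcf7l2 and Prkcd), 0 of 5 at 8 h and 0 of 5 at 120 h, beside 7.3%, 6.94% and 0% of all 12659 probes.

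In PFC the widest gap between group means was that of Calb2, which also had the widest spread. At 0 h its values were 9.46, 9.85 and 10.96 in controls and 9.76, 10.78 and 12.39 in treated mice, a difference of 0.99 ± 0.32 with 4 of 8 treated arrays above every control array. The second probe gave 0.91 ± 0.30, and the difference was 0.79 when the treated array least correlated with the others was left out. At 8 h the values were 10.26, 10.88 and 11.97 in controls and 9.38, 10.47 and 11.99 in treated mice (-0.63 ± 0.34), with 3 of 8 treated arrays below every control array and 1 above. At 120 h the difference was -0.26 ± 0.25. Mean Calb2 at 0, 8 and 120 h was 9.96, 11.01 and 11.08 in controls and 10.96, 10.38 and 10.82 in treated mice. The 0 h controls had the lowest of these means.

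Prkcd in PFC at 0 h had values of 7.2, 7.32 and 7.39 in controls and 7.27, 7.47 and 7.60 in treated mice, a smaller difference of 0.14 ± 0.043 in which 6 of 8 treated arrays lay above every control array. At 8 and 120 h its groups overlapped, at 0.046 ± 0.043 and 0.039 ± 0.040. Differences of Tcf7l2 ran from -0.058 to 0.075 over the 3 times, and those of Rora from 0.0070 to 0.041. The fit passed 0 of 4 genes at each time in PFC, beside 1.48%, 5.72% and 0% of all 12835 probes at 0, 8 and 120 h. The dim genes lie close to the array median, and after background correction their 0 h differences were larger. They became -0.87 for Gbx2 and -0.57 for Tcf7l2 in AMY, 0.47 for Tcf7l2, 0.46 for Gbx2 and 0.33 for Prkcd in NAC, and 0.27 for Prkcd in PFC.

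**Figure D2:**
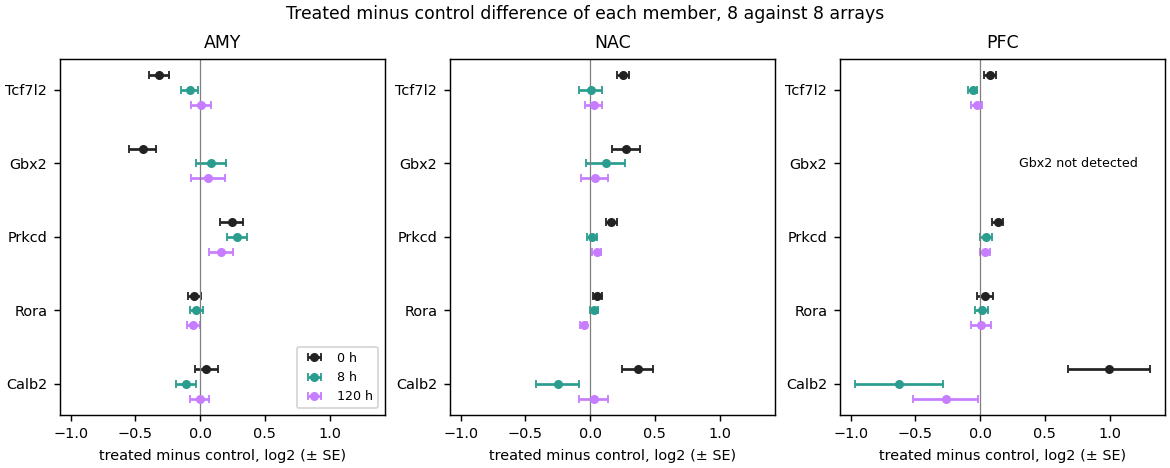
Treated minus control difference of each gene on the log2 scale (x axis) in AMY, NAC and PFC at 0, 8 and 120 h (colours); points are limma estimates and bars their SE, 8 against 8 arrays. At 0 h Gbx2 is at -0.44 in AMY and 0.28 in NAC, and Calb2 is at 0.99 in PFC.

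Control mice were also compared between time points. The control arrays of 0, 8 and 120 h also enter the treated against control differences by which the genes were chosen. Both sides of this contrast were thus among the values used, so its p-values and counts are not independent of that choice. Nothing is read from them, here or in AMY and PFC below. In NAC at 8 h against 0 h, limma passed 4 of 5 genes, beside 11% of all probes. Calb2 rose by 0.48 ± 0.13 (adjusted p = 0.020), Tcf7l2 by 0.19 ± 0.062 (adjusted p = 0.044) and Prkcd by 0.12 ± 0.037 (adjusted p = 0.045), while Rora fell by 0.11 (SE 0.029, adjusted p = 0.019). Gbx2 stood at 0.31 ± 0.12 (limma adjusted p = 0.085). The Tcf7l2 call was lost without the control array of lowest correlation with its group, at 0.19 (limma adjusted p = 0.060). At 120 h against 0 h in NAC, Tcf7l2 rose by 0.23 ± 0.062 (limma adjusted p = 0.026), and 1 of 5 genes passed beside 5.74% of probes. Gbx2 was at 0.37 ± 0.12 (limma adjusted p = 0.060).

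In AMY the controls' Tcf7l2 fell by 0.24 at 120 h against 0 h (SE 0.069, limma adjusted p = 0.024), the 1 gene of 5 that passed, beside 11.6% of probes. Gbx2 was at -0.35 ± 0.12 (limma adjusted p = 0.052). At 8 h Rora fell by 0.16 (SE 0.048, limma adjusted p = 0.036), again 1 of 5, beside 9.98%, and Gbx2 was at -0.32 ± 0.12 (limma adjusted p = 0.085).

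In PFC the controls' Calb2 rose by 1.05 ± 0.27 at 8 h (limma adjusted p = 0.026), the 1 gene of 4 that passed, beside 3.72% of probes. Without the control array of lowest correlation with its group, an 8 h array, it stood at 0.91 (limma adjusted p = 0.060). At 120 h 3 of 4 genes passed, beside 24.6% of probes. Calb2 rose by 1.12 ± 0.27 (limma adjusted p = 0.0035) and Tcf7l2 by 0.14 ± 0.038 (limma adjusted p = 0.0099), while Rora fell by 0.27 (SE 0.059, limma adjusted p = 0.0018). Which BeadChip held which array was not used here. The part of chip, day or number of detected probes in these time differences was not tested.

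Over the 48 arrays of a region, with the mean of each group removed, the genes did not vary as 1 set. The points share the array, its RNA and its punch, and the values are descriptive. Gbx2 and Tcf7l2 varied together in AMY (r = 0.868, rho = 0.853) and in NAC (r = 0.878, rho = 0.834), with a positive r in 6 of 6 groups in each. Without the 2 arrays farthest from the median, r was 0.851 and 0.852. The same mouse had the highest Gbx2 and the highest Tcf7l2 in 5 of 6 AMY groups and in 2 of 6 NAC groups.

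Calb2 joined this pair in NAC, with r = 0.720 to Gbx2 (rho = 0.661) and r = 0.728 to Tcf7l2 (rho = 0.667), but not in AMY, where r was -0.177 and -0.116. The r between its probes was 0.788 (AMY), 0.937 (NAC) and 0.983 (PFC), and its r with Tcf7l2 in PFC was 0.295. Prkcd went against Calb2 in AMY (r = -0.382, rho = -0.354) and was weakly related to Gbx2 in NAC (r = 0.331). For Rora, r with the other genes lay between -0.287 and 0.283 in all 3 regions.

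Outside the set, the genes most like its mean differed between regions. In AMY, among 8727 genes, they were Slc5a7 (r = 0.841), Slc10a4 (r = 0.839), Lhx8 (r = 0.825), Qrfprl (r = 0.814) and Chat (r = 0.813), and the least like it were Nrn1 (r = -0.803), Stx1a (r = -0.800) and Cck (r = -0.781). Slc5a7 is the choline transporter, Chat the enzyme that makes acetylcholine and Lhx8 a transcription factor of forebrain cholinergic neurons. With Gbx2 alone, Slc5a7 had r = 0.934 and Chat r = 0.916, and with Tcf7l2 they had 0.865 and 0.857. With Calb2 they had -0.237 and -0.265. At 0 h the treated minus control difference in AMY was -0.50 ± 0.13 for Slc5a7, -0.58 ± 0.18 for Chat and -0.31 ± 0.088 for Lhx8, on the same side as Gbx2 and Tcf7l2.

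In NAC, among 8736 genes, the closest were Arhgap12 (r = 0.935), Adcy8 (r = 0.928), Shh (r = 0.919), Slc17a6 (r = 0.913) and Rxfp3 (r = 0.905), and the least alike were Dgat2 (r = -0.812), Nrgn (r = -0.807) and Neu2 (r = -0.777). Adcy8 encodes a calcium-activated adenylyl cyclase and Shh the secreted signal Sonic hedgehog. Slc17a6 ranged from 128 to 920 in intensity over the NAC arrays and had r = 0.886 with Tcf7l2 and 0.874 with Gbx2. In AMY its r with these genes was -0.0253 and -0.0983. Chat, so close to Gbx2 in AMY, had r = 0.529 with it in NAC, whereas Lhx8 had 0.900. At 0 h the difference in NAC was 0.82 ± 0.19 for Slc17a6, 0.38 ± 0.093 for Lhx8 and 0.28 ± 0.066 for Adcy8.

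In PFC, among 8877 genes, the closest were Cdhr1 (r = 0.971), Trh (r = 0.943), Ly6g6e (r = 0.939), Doc2g (r = 0.934) and Cacng5 (r = 0.928), and the least alike were Dab2ip (r = -0.791), Ppfia3 (r = -0.788) and Smpd3 (r = -0.787). The mean of the set follows Calb2 here (r = 0.975). With Calb2 alone Cdhr1 had r = 0.988, while with Tcf7l2 it had 0.334. Cdhr1, a cadherin known from photoreceptors and from output neurons of the olfactory bulb, ranged from 258 to 2954 in intensity. It differed between treated and control PFC by 1.13 ± 0.37 at 0 h, by -0.68 ± 0.39 at 8 h and by -0.32 ± 0.31 at 120 h, close to the values of Calb2. In NAC and AMY the r of Cdhr1 with Calb2 was -0.121 and 0.137.

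**Figure D3:**
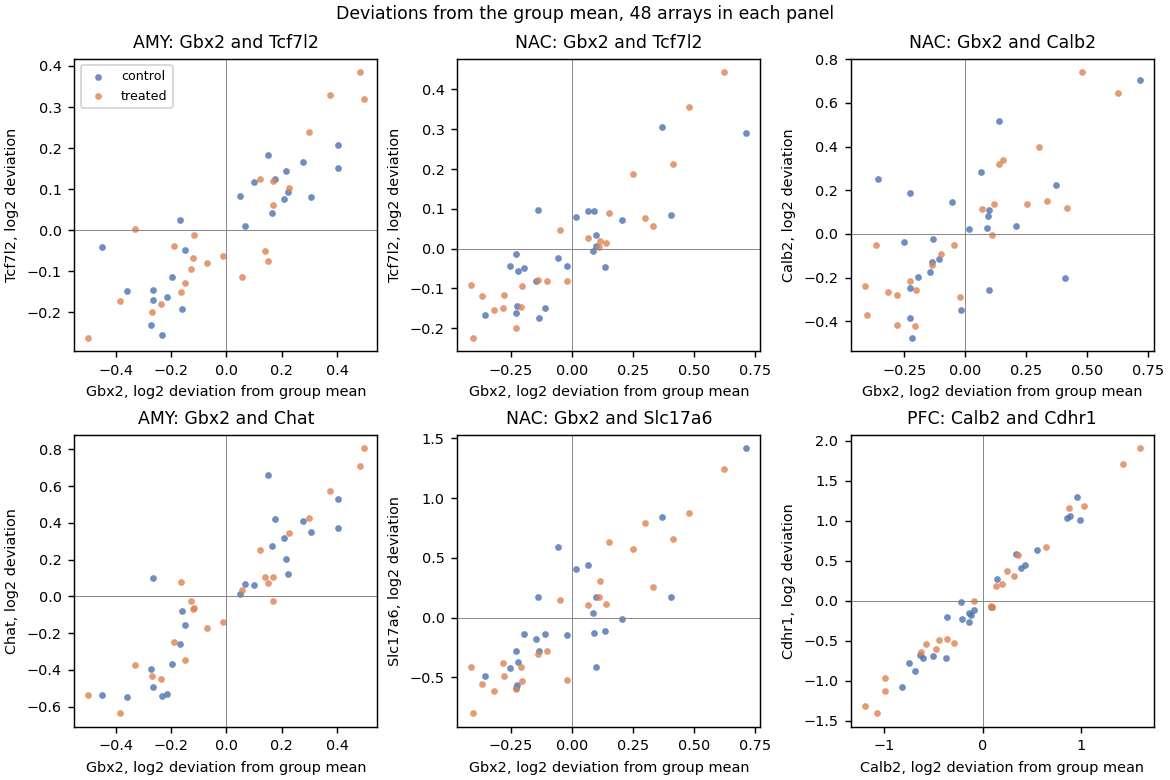
Log2 deviation of each array from its group mean for 6 pairs of genes, 48 arrays a panel, control mice in blue and treated mice in orange. Gbx2 follows Tcf7l2 in AMY and NAC, Chat in AMY (r = 0.916) and Slc17a6 in NAC (r = 0.874), and Calb2 follows Cdhr1 in PFC (r = 0.988).

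The label of thalamic markers was checked against a list of 15 other thalamic genes, of which 10 had a probe. Their mean followed Tcf7l2 and Gbx2 in NAC (r = 0.853 for each) and Calb2 in PFC (r = 0.939), AMY (r = 0.644) and NAC (r = 0.738), but in AMY it had r = -0.0703 with Tcf7l2 and -0.265 with Gbx2. Within the list, AMY Gbx2 had r = 0.758 with the zinc finger factor Zic1 and -0.682 with Cbln1, -0.649 with Ntng1 and -0.554 with Cacna1g. In PFC, Calb2 had r = 0.915 with Cbln1, 0.880 with Ntng1 and 0.879 with Zic1, while Cacna1g (r = 0.238) and Rgs16 (r = 0.203) were weakly related to it and Ramp3 went against it (r = -0.612). The measured genes, 5 in AMY and NAC and 4 in PFC, did not share 1 pattern under the thalamic label, and no cell type is named from these arrays.

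Marker lists of other cells varied with the genes. In AMY, Gbx2 followed oligodendrocyte (r = 0.714), striatal projection neuron (r = 0.691) and endothelial markers (r = 0.626) and went against cortical glutamatergic markers (r = -0.653). For Tcf7l2 the values were 0.677, 0.639, 0.657 and -0.646. In NAC, striatal markers went against Calb2 (r = -0.764), Tcf7l2 (r = -0.679) and Gbx2 (r = -0.638), and astrocyte markers followed Tcf7l2 (r = 0.702) and Gbx2 (r = 0.657). In PFC, Calb2 followed choroid plexus and meningeal markers (r = 0.743) and went against cortical (r = -0.810) and striatal markers (r = -0.742). The part of these cells in the differences of the genes was not tested.

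**Figure D4:**
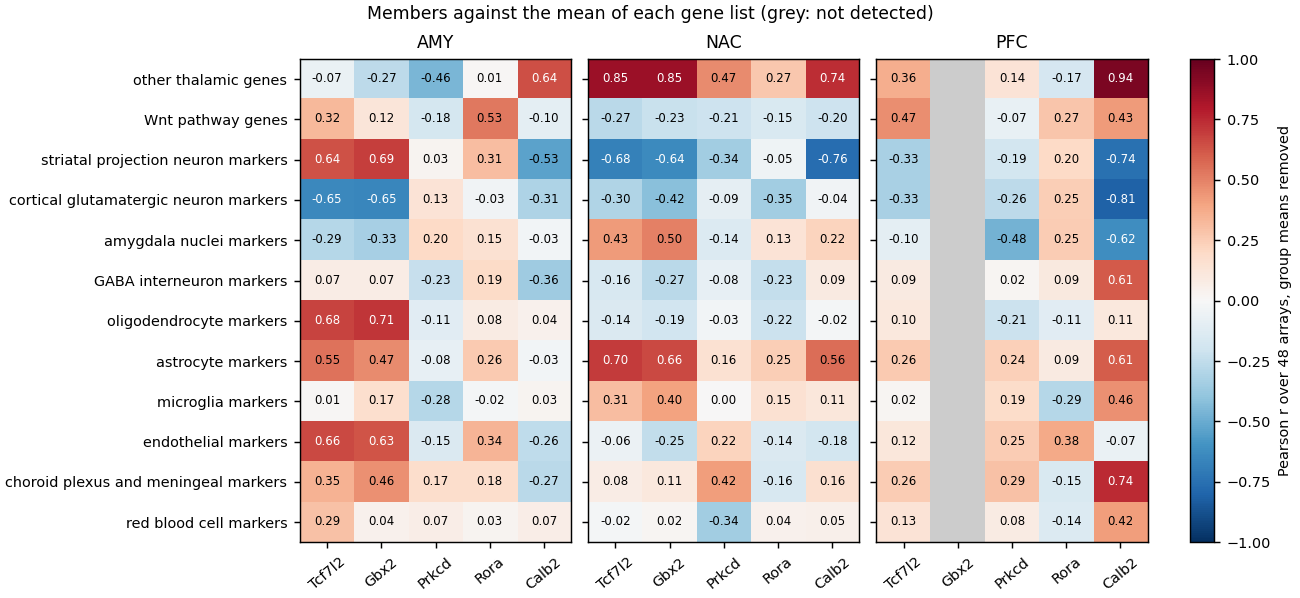
Pearson r of each gene (columns) with the mean of each gene list (rows) over the 48 arrays of AMY, NAC and PFC, group means removed; red is positive, blue negative, grey not detected. Other thalamic genes follow Gbx2 in NAC (0.85) and not in AMY (-0.27).

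The lists were tested between treated and control mice in the same limma fits. They were chosen with earlier results of these data known, so the p-values and counts of all lists below are not independent of these data. In NAC at 0 h, 3 of 10 other thalamic genes rose and 1 fell, beside 3.46% and 3.84% of all probes, with a median difference of 0.054 against -0.0026 over all probes. Slc17a6 rose by 0.82 ± 0.19 (limma adjusted p = 0.014), Cbln1, a secreted synapse organizer, by 0.29 ± 0.060 (limma adjusted p = 0.0079) and Rgs16, a regulator of G protein signalling, by 0.16 ± 0.035 (limma adjusted p = 0.012). Ntng1, a membrane-anchored netrin relative, fell by 0.15 (SE 0.030, limma adjusted p = 0.0088).

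Of 11 oligodendrocyte markers in NAC at 0 h 4 fell and 0 rose, beside 3.84% of probes that fell, with a list median of -0.23. Ugt8a, an enzyme of myelin lipid synthesis, fell by 0.40 (limma adjusted p = 0.014), Trf, transferrin, by 0.39 (limma adjusted p = 0.022) and Mag, myelin-associated glycoprotein, by 0.29 (limma adjusted p = 0.027). The summed intensity of the 11 markers ran from 17766 to 26419 in controls and from 17994 to 24065 in treated mice. Of 11 striatal markers 1 fell, Rgs9 (by 0.29, limma adjusted p = 0.017), with sums of 27694 to 31715 and 26134 to 32036. Among markers of other cells limma also passed 1 of 7 of GABA interneurons (Reln, lower by 0.36), 1 of 10 of microglia (Fcrls, lower by 0.44), 1 of 11 of astrocytes (Fgfr3, higher by 0.35), 1 of 5 of choroid plexus and meninges (Kl, higher by 0.23) and the 1 measured of red blood cells (Hba-a1, lower by 1.12). The part of these cells in the differences of Gbx2, Tcf7l2 and Calb2 was not tested.

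In AMY at 0 h, 1 of 10 other thalamic genes rose, Cbln1 (0.17 ± 0.043, limma adjusted p = 0.037), and 1 fell, Zic1 (by 0.25, limma adjusted p = 0.020), beside 1.65% and 2.22% of probes. Their median was -0.021. The limma fit passed 0 of 11 striatal, 0 of 11 oligodendrocyte and 0 of 6 cortical markers, of which 3, 3 and 1 had an unadjusted p of at most 0.05. Of all probes 20.2% had such a p. Differences were below 0 for 10 of 11 striatal markers (median -0.12) and 10 of 11 oligodendrocyte markers (median -0.12) and above 0 for 5 of 6 cortical markers (median 0.12). Slc17a7, the brightest cortical marker, stood at 0.48 ± 0.14 (limma adjusted p = 0.061). Summed intensities in control and treated arrays were 6146 to 9363 and 5770 to 8376 for striatal markers, 18625 to 22604 and 15542 to 23921 for oligodendrocyte markers, and 1516 to 1952 and 1553 to 2717 for cortical markers. Of the other lists, 2 of 8 GABA interneuron markers (Gad1 and Reln), 1 of 10 microglia markers (Fcrls), 1 of 6 endothelial markers (Flt1) and the 1 red blood cell marker (Hba-a1, by 1.12) fell and 0 rose. The part of these cells in the AMY values was not tested.

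At 8 h in NAC, 1 of 10 other thalamic genes rose and 2 fell, beside 4% and 2.95% of probes. Ramp3, a receptor activity-modifying protein, rose by 0.16 ± 0.045 (limma adjusted p = 0.039), while Tnnt1, a troponin, fell by 0.11 (limma adjusted p = 0.029) and Cacna1g, a T-type calcium channel, by 0.19 (limma adjusted p = 0.049). Of 11 oligodendrocyte markers 5 rose and 0 fell, with the largest difference in Mobp, a myelin protein (0.48 ± 0.098, limma adjusted p = 0.0063), and the smallest p in Cldn11, a tight junction protein of myelin (0.35 ± 0.069, limma adjusted p = 0.0049). Of 10 microglia markers 4 rose, among them the complement gene C1qb (0.25 ± 0.059, limma adjusted p = 0.015), and 1 fell, Fcrls (by 0.40, limma adjusted p = 0.00065). Of 5 choroid plexus and meningeal markers 3 rose and 0 fell, with the largest difference in Ptgds, a prostaglandin D synthase (1.13 ± 0.21, limma adjusted p = 0.0031), and their summed intensity was 1605 to 2105 in controls and 2139 to 3662 in treated mice, without overlap. Hba-a1, the 1 measured red blood cell marker, fell by 1.14, 2 of 11 striatal and 2 of 11 astrocyte markers rose, and of 7 endothelial markers 1 rose and 1 fell. The part of these cells in the NAC values was not tested. In PFC, Slc17a6 rose at 0 h (0.50 ± 0.089, limma adjusted p = 0.010) and Rgs16 fell at 8 h (by 0.15, limma adjusted p = 0.016), each the 1 gene of 9 that passed. The share of all probes that passed in those directions was 0.764% and 3.13%. Of 10 other thalamic genes in AMY, 0 passed limma at 8 h, where 2 had an unadjusted p of at most 0.05, beside 15.8% of all probes. At 120 h limma called 0 probes in each region, when 384 probes of AMY, 579 of NAC and 438 of PFC had an unadjusted p of at most 0.05. These were 3.05%, 4.57% and 3.41% of all probes.

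Wnt pathway genes, among which are partners and targets of Tcf7l2, were tested as a list of 28, of which 18 had a probe, 13 were measured in AMY and NAC and 15 in PFC. At 0 h limma passed 0 of them in every region, where 1 (AMY), 1 (NAC) and 3 (PFC) had an unadjusted p of at most 0.05. The share of all probes with such a p was 20.2%, 22.8% and 17.8%. At 8 h limma passed 0 in AMY and 0 in NAC, where 2 and 1 had such a p, beside 15.8% and 22.4% of all probes. Ctnnb1, which encodes beta-catenin, differed at 0 h by 0.063 ± 0.047 in AMY and by -0.050 ± 0.053 in NAC. In PFC at 8 h 3 of 15 fell and 0 rose, beside 3.13% of probes that fell. Axin2, a feedback target of the pathway, fell by 0.20 (limma adjusted p = 0.0022), Apcdd1, a Wnt inhibitor, by 0.16 (limma adjusted p = 0.011) and Tcf7l1, a relative of Tcf7l2, by 0.13 (limma adjusted p = 0.039). Tcf7l2 itself differed by -0.058 ± 0.037 there.

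Punches of the same mouse were then compared between regions, again with group means removed. Mice with high Gbx2 in AMY had low Gbx2 in NAC (r = -0.686, rho = -0.665, 48 mice). Tcf7l2 had r = -0.393 between AMY and NAC (rho = -0.397), -0.328 between AMY and PFC and 0.160 between NAC and PFC. For Prkcd, Rora and Calb2, r lay between -0.163 and 0.224 over all pairs of regions. Both values of a pair come from 1 brain, and the part of punch placement in these relations was not tested.

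**Figure D5:**
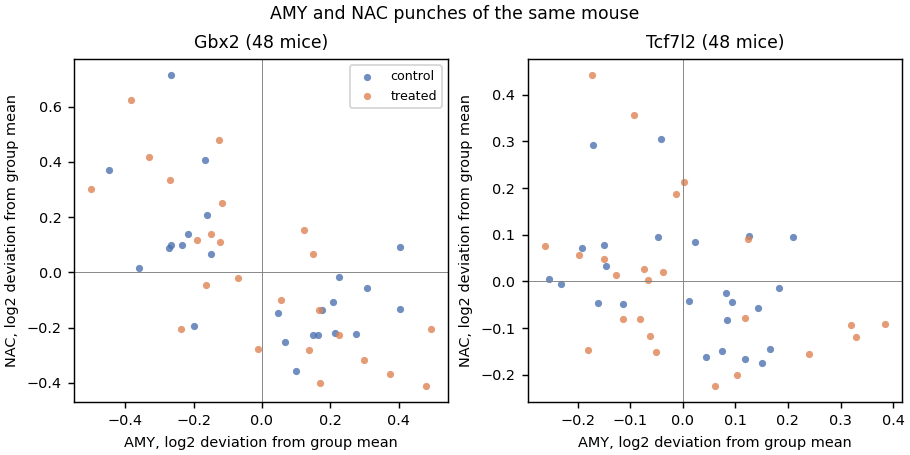
Log2 deviation from the group mean of Gbx2 (left) and Tcf7l2 (right) in the AMY punch (x axis) and the NAC punch (y axis) of the same mouse, 48 mice, control in blue and treated in orange. Gbx2 slopes from upper left to lower right (r = -0.686), and Tcf7l2 more loosely (r = -0.393).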

How the data were processed

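Total RNA from punches of AMY, NAC and PFC was hybridized by the authors to Illumina MouseRef-8 v2 BeadChips, with a layout they describe as balanced over groups. The deposited tables hold the intensity of 25697 probes on each of 48 arrays per region, not normalized, and the authors' scanner software gave the detection p-value beside each intensity. The deposited processed table holds log2 values that the authors made with lumi (version not given in the sources used here) by variance stabilization and quantile normalization after filtering and removal of outlying values. It served as an alternative, and its 47 liver columns were not used.

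Probes detected (p at most 0.05) on more than 80% of a region's arrays were kept, 12588 in AMY, 12659 in NAC and 12835 in PFC. Intensities were taken to log2, quantile normalized and fitted with limma 3.58.1 in R 4.3.3, treated against control at each time (16 arrays) and control arrays over time (24 arrays), with Benjamini-Hochberg adjustment over all probes of a region. The number of arrays limits the precision. Differences are on a log2 scale that keeps the optical background, which makes those of dim probes smaller. Probes were named by the platform annotation with symbols updated through RefSeq, 1 probe per gene for the lists (the brightest). Correlations use deviations from group means. Named genes were the 6 listed genes, the 5 genes most and 3 least like the mean of the measured ones in each region, and, of each list, up to 3 that passed in each direction in order of p. Single genes of the lists quoted beside them for their r or level were chosen after their values were seen. The genes and lists were chosen with earlier results of these data known. The fits were tested on simulated data. Alternatives were median scaling, background correction (limma nec, offset 16), the processed values, detection on more than 50% of arrays or no filter, all 6 groups in 1 fit and array weights.

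Promoter sequences are from RefSeq (GRCm38.p6), which held 5 of the 6 genes. The labels give the NAC punch as 2 mm and the methods as 1.25 mm.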

Additional observations from a re-analysis of the deposited data

Results flagged for a closer look

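In 102 tests, 1 for each kept probe of the listed genes in each group of 8 arrays, 1 array stood apart from the rest of its group. In NAC at 120 h, 1 treated mouse had a Tcf7l2 level of 7.88 on the log2 scale when the next highest was 7.51, and the gap took a share of 0.613 of the range of the group, above Dixon's critical value for a group of this size. Chance alone would single out an array in about 1 test in 20, and 1 in 102 is below that rate. The tests share arrays. The same mouse had the highest Gbx2 (8.37), Calb2 (9.47), Prkcd (7.25) and Rora (8.07) of its group.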

How the results depend on the processing

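Over all alternatives, 186 summary values stayed close to the reported ones and 30 moved. Sign changes were recorded for values of single genes only. Of these values 597 stayed the same by the criteria used, 7 moved, 11 gained a call and 15 lost it. Calls gained or lost were recorded here for control arrays over time only. A treated against control value counted as the same when it shifted by less than the SD within groups, even where its call changed. No single-gene value called in the reported fit changed sign. With background correction the mean difference of the measured genes at 0 h became -0.22 in AMY (-0.10 as reported) and 0.35 in NAC (0.22), and without Calb2 that of PFC at 0 h became 0.084 (0.31). The number of genes passing treated against control changed in AMY at 0 h from 2 to 0 with no detection filter, in AMY at 8 h from 1 to 0 with background correction, processed values, no filter or all 6 groups in 1 fit, in NAC at 0 h from 2 to 4 with array weights, and in PFC at 0 h from 0 to 1 with all 6 groups in 1 fit. In control arrays over time, the number changed with no filter from 1 to 0 (AMY, 8 h), 1 to 0 (AMY, 120 h), 4 to 2 (NAC, 8 h) and 1 to 0 (PFC, 8 h). With median scaling it went from 1 to 2 (AMY, 120 h), 4 to 2 (NAC, 8 h), 1 to 2 (NAC, 120 h) and 1 to 4 (PFC, 8 h). With all 6 groups in 1 fit it went from 1 to 2 (AMY, 120 h) and 1 to 0 (PFC, 8 h), and with background correction or array weights from 1 to 2 (NAC, 120 h). Without the array of lowest correlation with its group it went from 1 to 2 (AMY, 120 h) and 1 to 0 (PFC, 8 h), and from 4 to 3 (NAC, 8 h), as it did there with processed values, all 6 groups in 1 fit or array weights. Leaving out that array, the score without Calb2 and the replicate block were chosen after seeing the data. With no filter more probes enter the adjustment, and the cause of the other changes was not tested.

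Whether replicate numbers pair the samples was not settled. Correlations of deviations of same-numbered treated and control arrays ran from -0.326 to 0.546, and 1 to 5 of 8 pairs exceeded 0.1. In each region and time, 0 to 2 of 8 control arrays correlated best with the treated array of their own number. They ran from 0.019 to 0.359 in AMY at 120 h (median 0.175) and from -0.182 to 0.122 in NAC at 0 h (median 0.018). The intensity tables carry no replicate number, so a replicate block could be fitted on the processed values alone. On the processed values without the block 2 genes passed in AMY and 2 in NAC at 0 h, and with it 0 and 1. In AMY at 8 h the block took the number from 0 to 1. Over time in controls 1 passed without the block in each of AMY at 8 h, AMY at 120 h, NAC at 120 h and PFC at 8 h, and 0, 2, 2 and 0 with it. Signal over background limits Gbx2, Tcf7l2 and, in NAC and PFC, Prkcd, whose differences grew most with background correction.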
